A study of Mus musculus with 12 samples.

Results

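The 10 protein-coding genes Ccdc3, Cntnap2, Anxa8, Slc6a8, Defb1, Bex4, Arhgap22, Gipc2, Fam126a and Duox1 are described here in mouse urothelium that has lost Stag2. They are 10 of the 23337 gene symbols in the count tables. They were chosen by their lower levels in the knockout at both times sampled, so their genotype differences are a description of that choice and carry no test. Urothelium is the epithelium that lines the bladder, and it was peeled from the tissue beneath it before RNA was extracted. Stag2, carried on the X chromosome, encodes one of the cohesin subunits. The 4 groups of 3 libraries were Stag2-WT at 1 week, Stag2-KO at 1 week, Stag2-WT at 1 month and Stag2-KO at 1 month, where time counts from the first day of a week of food containing TMX, taken to be tamoxifen. The mice of all 12 libraries, WT included, ate that food. The 6 libraries of 1 week form batch 1 of the labels and those of 1 month form batches 2 and 3, so time and batch cannot be told apart. The driver of recombination, the strain, the age and the sex of the mice are not given in the sources used here.

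Cohesin, the ring that contains Stag2, holds sister chromatids together and shapes chromatin loops, through which it can affect how strongly genes are transcribed. Resting urothelium has a basal layer, intermediate cells and large umbrella cells that face the urine, form the permeability barrier and secrete defence molecules. The 10 genes share no single pathway. Cntnap2, Slc6a8, Fam126a and Duox1 encode proteins that act at the cell membrane, Ccdc3 and Defb1 encode secreted proteins, and Anxa8, Arhgap22, Gipc2 and Bex4 encode proteins of the cytoplasm or its membrane surface.

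The study's title ties STAG2 to DREAM, which keeps cell cycle genes silent while cells rest and meets many of them through the cell cycle genes homology region (CHR). The window of 250 bases before the RefSeq start site (GRCm38.p6) was found for 7 of the 10 genes, with 2 start sites for Cntnap2. Those windows that held the CHR letters at a first or only start site are shown because this is the sequence through which the title's complex is known to act. Capitals mark TTTGAA, read on either strand, and each line runs 5′ to 3′ on the strand of the gene. The windows are chr6:45059811-45060060 for Cntnap2, chr14:34085729-34085978 for Anxa8 and chr2:122315422-122315671 for Duox1, all on the plus strand.
Cntnap2: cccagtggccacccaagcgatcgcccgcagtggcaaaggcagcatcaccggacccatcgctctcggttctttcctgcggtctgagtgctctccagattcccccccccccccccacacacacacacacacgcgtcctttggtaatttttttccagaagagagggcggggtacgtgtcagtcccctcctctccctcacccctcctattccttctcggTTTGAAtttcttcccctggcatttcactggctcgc
Anxa8: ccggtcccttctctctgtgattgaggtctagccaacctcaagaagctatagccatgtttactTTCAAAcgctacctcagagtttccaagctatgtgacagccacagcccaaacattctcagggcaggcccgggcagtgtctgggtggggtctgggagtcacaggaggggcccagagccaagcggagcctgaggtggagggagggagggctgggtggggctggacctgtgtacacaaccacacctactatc
Duox1: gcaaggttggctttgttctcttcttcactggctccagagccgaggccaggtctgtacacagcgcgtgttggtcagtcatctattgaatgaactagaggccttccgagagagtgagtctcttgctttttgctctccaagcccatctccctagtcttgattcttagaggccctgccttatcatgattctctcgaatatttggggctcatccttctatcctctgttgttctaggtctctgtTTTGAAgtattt

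TTTGAA was present on either strand in 3 of the 7 matched genes, those 3, and in 18.3% of the 27025 genes with such a window. The match began 35 bases before the start of Cntnap2, 188 before that of Anxa8 and 12 before that of Duox1, and the second start site of Cntnap2 held another, 246 bases before it. The grainyhead-like site AACCNGTT was in 1 of the 7 (Ccdc3, 2.0% of all genes) and the E-box CACGTG in 1 of the 7 (Bex4, 6.86% of all). None of the 7 held the E2F site GGCGGGAA (2.13% of all), the GATA site AGATAA (11.4%), the TATA box TATAAA (14.3%) or the direct repeat of PPAR and RXR (0.0407%). Both strands were read for every motif, and no motif searched for overlapped another in these windows. These are letter matches in short windows, with no measure of binding.

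The libraries differed in ways that touch every value below. Total counts ran from 5580961 to 9497088. KO replicate 3 of 1 week stood apart, with Spearman correlations across 13122 genes of 0.746 to 0.842 to the other libraries of that time, where KO replicates 1 and 2 reached 0.95 and 0.94. Stag2, the targeted gene, had 53.0% of the WT mean in KO at 1 week and 55.6% at 1 month, with every KO library below every WT library of its time. Xist, which marks an inactive X chromosome, had 6392 to 10406 counts in the KO libraries of 1 week and 7764 in KO replicate 3 of 1 month, and at most 28 in the other 8 libraries. The summed counts of 4 Y-linked genes were 632 or more in those 8 libraries and at most 4 in the others. At 1 week, genotype and sex as read from these transcripts therefore cannot be told apart. At 1 month, batch 2 holds 2 WT and 2 KO libraries that all carry Y-linked transcripts, and batch 3 holds WT replicate 3 and KO replicate 3. Luminal urothelium markers were present, with 20 of 20 at a mean of 1 CPM (counts scaled to a common library total) or more, and so were stromal and muscle markers (14 of 14).

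Levels are given as CPM of reads at transcripts' 3′ ends, with library totals scaled by TMM, a factor that corrects for composition, over all 12 libraries. Cntnap2, on chromosome 6, encodes Caspr2, a neurexin-like membrane protein best known for clustering potassium channels along myelinated axons. At 1 week it had 53.3, 37.1 and 67.2 CPM in WT replicates 1 to 3 and 15.2, 9.37 and 3.36 CPM in KO. At 1 month it had 51.8, 35.5 and 34.9 CPM in WT and 7.55, 4.94 and 4.55 CPM in KO. The lowest WT library lay above the highest KO library by a factor of 2.44 at 1 week and 4.62 at 1 month. The lowest library of each time was KO replicate 3, and the KO mean was 17.7% and then 13.9% of the WT mean.

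Slc6a8, on the X chromosome, encodes the creatine transporter, which brings creatine into cells with high energy demand. It had 47.6, 32.5 and 41.3 CPM in WT and 11.01, 17.4 and 7.72 CPM in KO at 1 week. At 1 month the WT libraries had 40.0, 48.6 and 54.2 CPM and the KO libraries 7.04, 10.2 and 17.6 CPM. The genotypes stood apart at both times, and the highest KO library of 1 month was the one that carries Xist. The KO mean was 29.8% of WT at 1 week and 24.4% at 1 month.

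Fam126a, on chromosome 5, encodes hyccin, a subunit of the complex that makes phosphatidylinositol 4-phosphate at the plasma membrane. At 1 week WT libraries had 55.4, 62.8 and 58.9 CPM and KO libraries 24.5, 28.0 and 12.7 CPM. WT levels at 1 month were 75.2, 97.3 and 53.2 CPM, against 24.7, 27.1 and 26.4 CPM in KO. The KO libraries of 1 month lay within a factor of 1.10 of each other, the narrowest KO spread among the 10 genes at that time. The KO mean was 36.8% and then 34.7% of WT.

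Duox1, on chromosome 2, encodes a dual oxidase that releases hydrogen peroxide at the surface of epithelia. It had 25.2, 28.3 and 23.5 CPM in WT and 7.04, 8.61 and 10.7 CPM in KO at 1 week. At 1 month it had 23.8, 28.4 and 28.0 CPM in WT and 13.6, 14.0 and 10.8 CPM in KO. The WT levels overlapped between the times, while every KO library of 1 month was above every KO library of 1 week. The share left in KO was 34.2% at 1 week and 47.8% at 1 month, the highest of the 10 genes at 1 month.

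Ccdc3, on chromosome 2, encodes a secreted coiled-coil protein also known from vascular endothelium and fat. WT libraries had 59.0, 57.0 and 81.6 CPM at 1 week, and KO libraries 22.0, 18.8 and 36.8 CPM. At 1 month the WT libraries of batch 2 had 139.6 and 134.1 CPM, that of batch 3 had 57.1 CPM, and the KO libraries had 21.6, 27.3 and 13.0 CPM. The WT library and the KO library of batch 3 were each the lowest of their group at 1 month. The KO mean was 39.3% of WT at 1 week and 18.7% at 1 month.

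Defb1, on chromosome 8, encodes a beta-defensin, an antimicrobial peptide that epithelia of the urinary tract secrete without a trigger. It had 15.2, 17.6 and 12.7 CPM in WT and 3.46, 3.88 and 6.13 CPM in KO at 1 week. At 1 month WT libraries had 78.96, 32.7 and 21.3 CPM and KO libraries 8.95, 8.06 and 5.01 CPM. All 3 WT libraries of 1 month were above all 3 of 1 week, and the WT mean was 2.92 times as high. WT replicate 1 of 1 month held the highest level. The share left in KO was 29.6% and then 16.6%.

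Anxa8, on chromosome 14, encodes a calcium-dependent phospholipid-binding protein of stratified epithelia. At 1 week WT libraries had 88.2, 86.3 and 98.1 CPM and KO libraries 20.4, 43.6 and 60.3 CPM. WT libraries of 1 month had 83.4, 89.8 and 68.1 CPM and KO libraries 15.9, 18.8 and 22.9 CPM. The KO libraries of 1 week spread over a factor of 2.96, and the one nearest to WT was replicate 3, the library that stood apart. The mean left in KO was 45.6% of WT at 1 week, the highest of the 10 genes at that time, and 23.8% at 1 month.

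Arhgap22, also on chromosome 14, encodes a GTPase-activating protein for the small GTPase Rac1. It had 13.2, 19.1 and 18.6 CPM in WT and 3.97, 3.12 and 10.7 CPM in KO at 1 week. At 1 month WT libraries had 20.6, 19.9 and 18.5 CPM and KO libraries 7.55, 4.11 and 1.67 CPM. KO replicate 3 of 1 week came within a factor of 1.24 of the lowest WT library, the smallest gap of the 10 genes at either time. The share left in KO was 34.9% and 22.6%.

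Gipc2, on chromosome 3, encodes a PDZ-domain adaptor of the GIPC family, whose members link membrane receptors to the motor myosin VI. WT libraries had 19.6, 17.2 and 21.8 CPM at 1 week, and KO libraries 2.05, 0.538 and 0.989 CPM, from 5 to 16 counts. At 1 month WT libraries had 13.7, 12.02 and 9.24 CPM and KO libraries 6.14, 3.13 and 0.607 CPM. All 3 WT libraries of 1 month were below all 3 of 1 week, the reverse of Defb1. KO levels of 1 month spread over a factor of 10.1, with the library that carries Xist the lowest. The share left in KO was 6.10% at 1 week and 28.3% at 1 month.

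Bex4, on the X chromosome, belongs to the small brain-expressed X-linked family. It had 5.23, 4.58 and 5.69 CPM in WT at 1 week (40 to 56 counts), and 2, 0 and 0 counts in KO replicates 1 to 3. At 1 month WT libraries had 7.79, 2.25 and 2.68 CPM (12 to 37 counts) and KO libraries 1, 0 and 2 counts. With a floor of 3 counts per library, the level was at least 8.71-fold lower in KO at 1 week and at least 8.60-fold lower at 1 month. Such a count floor limits what can be said of Bex4, and its fitted fold changes depend on the prior count. For Bex4 and Gipc2 the KO libraries alone would not have passed the filter on low counts at either time, while for the other 8 they would have. That Bex4 and Gipc2 were tested thus depended on the WT libraries and is not independent of the genotype difference.

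**Figure D1:**
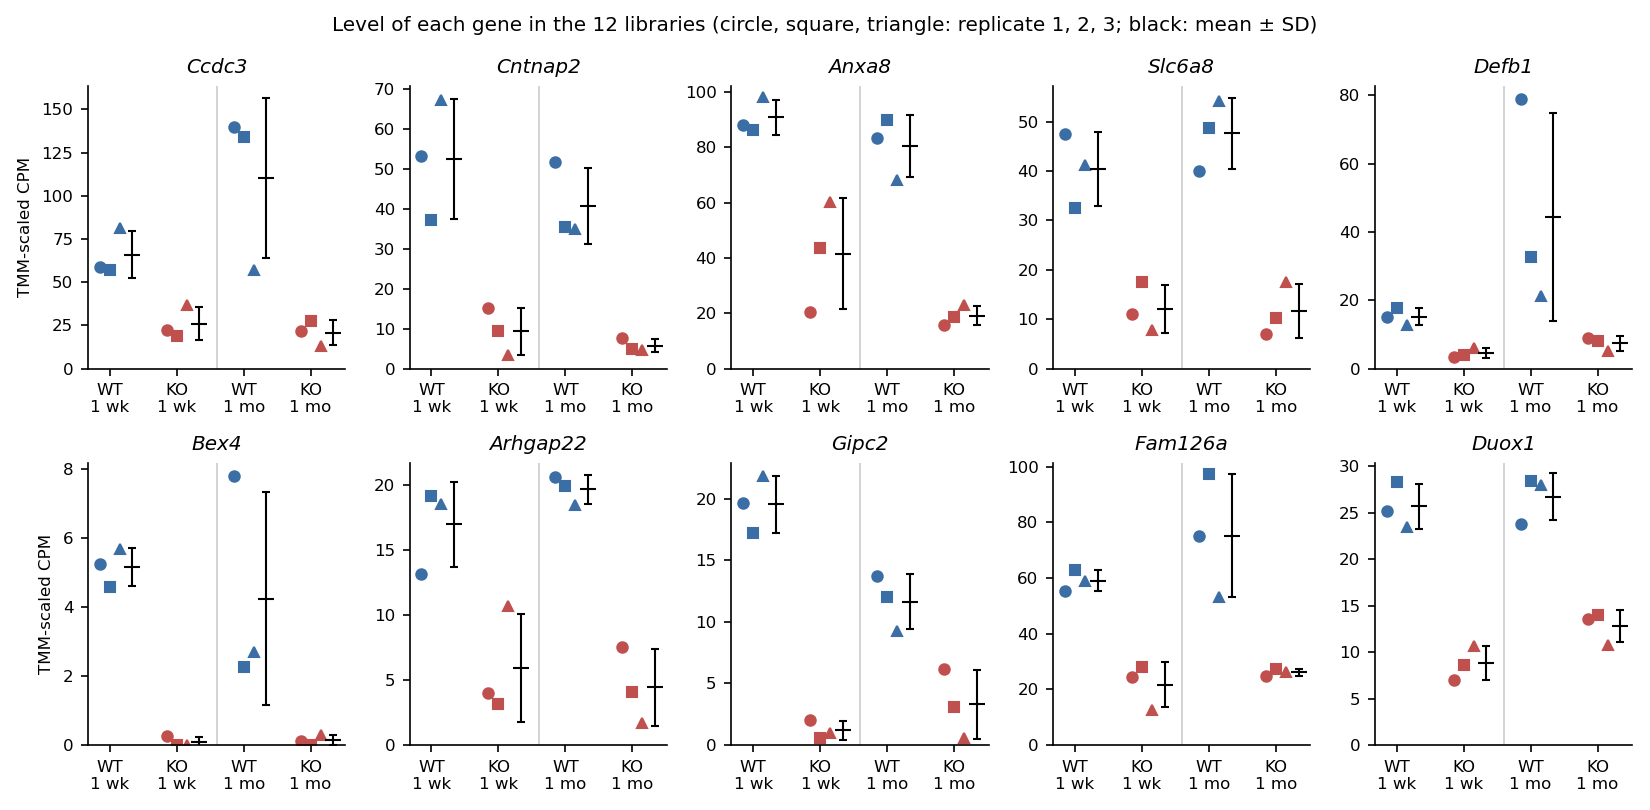
TMM-scaled CPM of each of the 10 genes (vertical axes, each from 0) in the 4 groups, with 1 point for each library (circle, square and triangle for replicates 1, 2 and 3) and the mean ± SD of each group in black. In each panel the KO points lie below the WT points of the same time, with the closest approach in Arhgap22 at 1 week.

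In bulk RNA, fewer cells that express a gene and less RNA per cell cannot be told apart. Every KO library was below every WT library for 10 of 10 genes at 1 week and for 10 of 10 at 1 month. Among all genes tested, 13.4% showed this at 1 week, 6.71% at 1 month, and 1.22% of the 11919 genes tested at both showed it at both. In edgeR's quasi-likelihood test with adjustment over all genes, 0 of the 10 passed 0.05 at 1 week, where 0.0470% of genes were lower and 0.0157% higher. At an unadjusted p under 0.05 the count at 1 week was 10, where 1976 of 12754 genes passed. DESeq2 passed 8, where it passed 883 of 14474 genes. Without KO replicate 3 of 1 week edgeR passed 9, where it passed 320 genes in all, and without KO replicate 1 it passed 1, where it passed 56. At 1 month 10 of 10 passed, where 1.22% of genes were lower and 0.997% higher. Without the batch term 0 of them and 0 of all genes passed. Without WT replicate 2 of 1 month 6 passed, where 45 of all genes did, and without KO replicate 2 6 passed, where 84 did. Without WT replicate 1 it was 7, where 83 of all genes passed, and without KO replicate 1 it was 7, where 63 did. Without WT or KO replicate 3 it was 9, where 1522 and 1513 of all genes passed, against 269 with every library. Since these contrasts chose the genes, nothing is read from the counts.

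**Figure D2:**
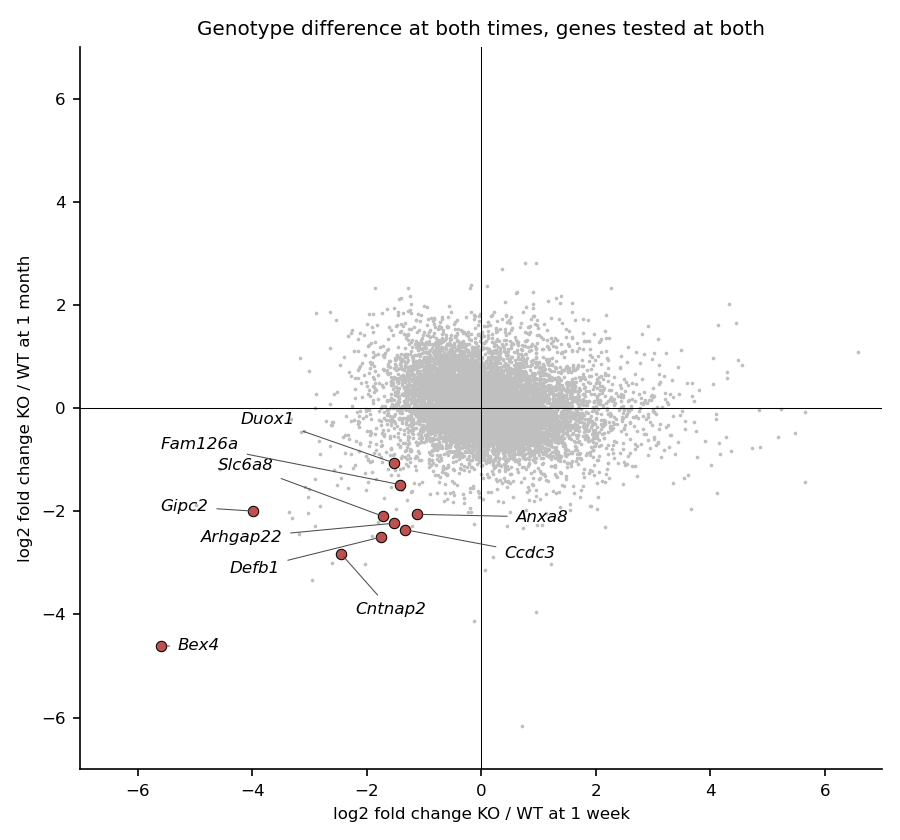
Fitted log2 fold change of KO over WT at 1 week (horizontal) against 1 month (vertical) for the 11919 genes tested at both times in grey, of which 6 lie outside the axes, with the 10 genes in red. The red points sit in the lower left quadrant, from Bex4 at -5.59 and -4.61 to Anxa8 at -1.12 and -2.06 and Duox1 at -1.53 and -1.06.

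The fitted log2 fold changes ran from -5.59 to -1.12 at 1 week, with a median of -1.62, and from -4.61 to -1.06 at 1 month, with a median of -2.17. Setting Bex4 at its bound left both medians as they were. In order of fitted size at 1 week, Bex4 at -5.59 (SE 0.88) and Gipc2 at -3.99 (SE 0.55) came before Cntnap2 at -2.45 (SE 0.55). Defb1 at -1.74 (SE 0.39), Slc6a8 at -1.72 (SE 0.38), Duox1 at -1.53 (SE 0.31), Arhgap22 at -1.52 (SE 0.53), Fam126a at -1.41 (SE 0.35), Ccdc3 at -1.33 (SE 0.35) and Anxa8 at -1.12 (SE 0.40) followed, and each neighbour among these 7 was within 1 SE of the next. At 1 month the order was Bex4 at -4.61 (SE 0.84), Cntnap2 at -2.82 (SE 0.28), Defb1 at -2.50 (SE 0.33), Ccdc3 at -2.36 (SE 0.22), Arhgap22 at -2.23 (SE 0.39), Slc6a8 at -2.10 (SE 0.26), Anxa8 at -2.06 (SE 0.23), Gipc2 at -1.998 (SE 0.47), Fam126a at -1.49 (SE 0.23) and Duox1 at -1.06 (SE 0.25). The fitted value of Bex4 gives no exact place, since at the floor of 3 counts its bound was -3.12 at 1 week and -3.10 at 1 month. At 1 week that bound is a smaller difference than the value of Gipc2. The order at 1 week also rested on single libraries, as Arhgap22 was at -2.28 without KO replicate 3 and Bex4 at -8.42 without KO replicate 1.

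Bex4, with 0 to 2 counts in each KO library, is given no direction between the times. Of the other 9 genes, 7 had the larger fitted difference at 1 month and 2, Gipc2 and Duox1, at 1 week. All KO libraries carry Xist at 1 week, and only KO replicate 3 does at 1 month. Time, batch and the mix of sexes therefore cannot be told apart in any difference between the times. In the fit of all 12 libraries, the log2 fold change at 1 month minus that at 1 week was -1.02 (SE 0.41) for Ccdc3, -0.94 (SE 0.49) for Anxa8 and -0.74 (SE 0.53) for Defb1. For Gipc2 it was 1.95 (SE 0.78), and for Duox1 0.48 (SE 0.38). These 5 genes kept the sign of that value in all 17 alternative fits. Fam126a, at -0.06 (SE 0.43), had the same sign in 10 of 17, and Cntnap2, Slc6a8 and Arhgap22 in 16 each. Arhgap22 was at -0.73 (SE 0.71), and without KO replicate 3 of 1 week its value was 0.01. Cntnap2 was at -0.36 (SE 0.63), and at 0.18 without KO replicate 1 of 1 week. Slc6a8 was at -0.38 (SE 0.48), and at 0.01 without KO replicate 2 of 1 week.

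**Figure D3:**
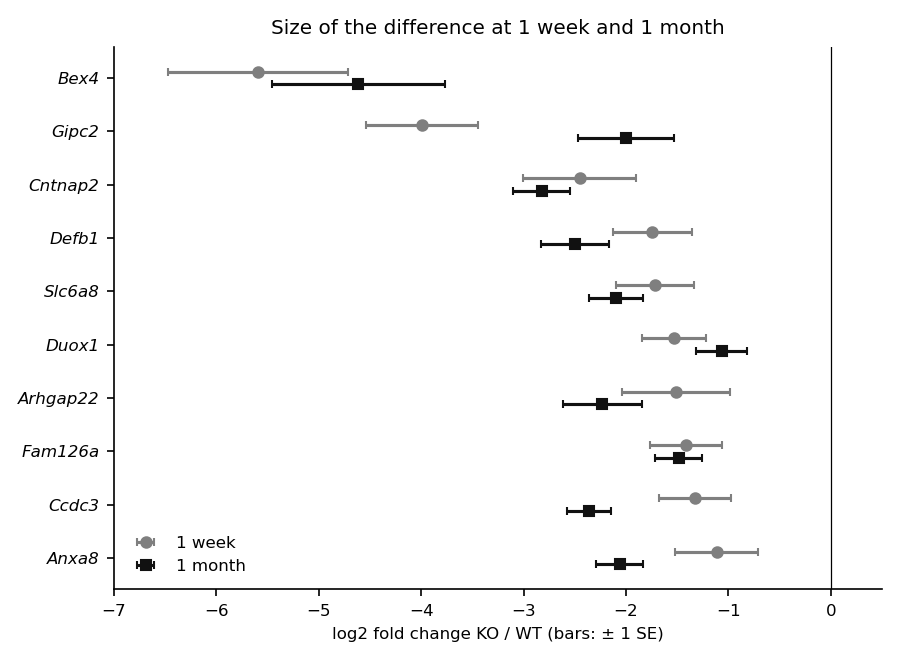
Fitted log2 fold change of KO over WT (horizontal axis) of each gene at 1 week (grey circles) and 1 month (black squares), with bars of 1 SE on each side and genes in the order of 1 week. Gipc2 has the widest step between the times, from -3.99 to -1.998, and the values of Fam126a, -1.41 and -1.49, nearly coincide.

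Within batches at 1 month, the mean log2 CPM of KO was below that of WT for 10 of 10 genes in batch 2 and for 10 of 10 in batch 3, where each genotype has 1 library. Gipc2 differed by -1.49 in batch 2 and by -3.43 in batch 3, and Arhgap22 by -1.81 and -3.27. Anxa8 went the other way, at -2.31 and -1.56, as did Slc6a8 at -2.34 and -1.61, Fam126a at -1.71 and -1.003, and Ccdc3 at -2.48 and -2.11. Cntnap2 was alike in both batches, at -2.76 and -2.86. The libraries of batch 2 all carry Y-linked transcripts, and they are among those by which the genes were chosen. The 10 of 10 in each batch is therefore a description with no test, and the part of sex was not tested. The share of all genes lower within each batch was not counted. In batch 3 the KO library carries Xist and the WT library does not, so batch, sex and single-library spread cannot be told apart there.

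The share of the WT mean found in single knockout libraries differed between the 10 genes. WT libraries of 1 month themselves ran from 93.92 to 104.9% of that mean for Arhgap22 and from 48.08 to 178.2% for Defb1. Unequal loss and spread between libraries therefore cannot be told apart here. At 1 week, KO replicate 3 kept 66.4% of the WT mean of Anxa8, 62.95% of Arhgap22 and 55.9% of Ccdc3, each the highest of the 3 KO libraries. The same library kept 6.402% of Cntnap2, 21.4% of Fam126a and 19.1% of Slc6a8, each the lowest of the 3. At 1 month, KO replicate 3 kept 5.21% of Gipc2 and 8.48% of Arhgap22, where KO replicate 1 kept 52.7% and 38.4%. Slc6a8 ran in the reverse order, with 14.8% in KO replicate 1 and 36.95% in KO replicate 3.

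**Figure D4:**
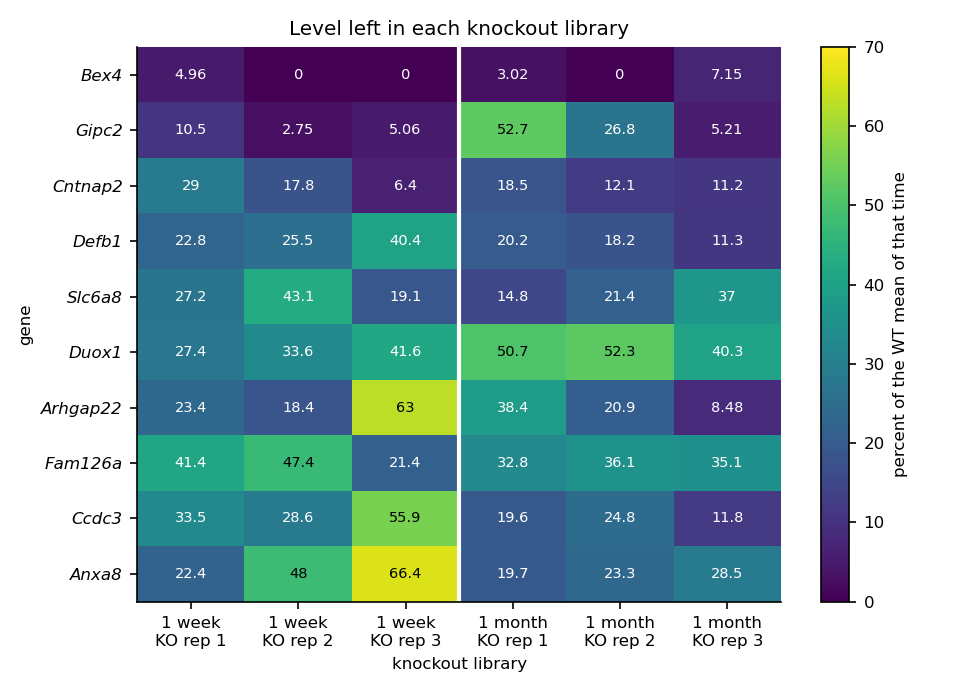
Level of each gene in each knockout library as a percent of the WT mean of the same time (colour and number), with the 3 libraries of 1 week on the left and those of 1 month on the right. At 1 month that mean takes in both batches, and KO replicate 3 is the lone KO library of its batch. The fullest cells are Anxa8 and Arhgap22 in KO replicate 3 of 1 week, at 66.4% and 62.95%, and Bex4 is at 0% in 3 libraries.

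Variation inside the groups does not use the contrast that chose the genes. After the mean of each genotype, time and batch was removed, the 45 pairs of genes had a median Pearson correlation of -0.097 over 10 libraries, which share depth and scaling, and 19 pairs were above 0. Over all pairs of 13122 genes the median was 0.003. Removing those means left fewer free values than libraries, and in batch 2 the residuals of the paired libraries of each genotype mirror each other. The extreme values named next are picked from 45 pairs, so little can be read from them. Cntnap2 and Duox1 had the lowest value, -0.96, and it was -0.93 without KO replicate 3 of 1 week. Slc6a8 and Arhgap22 had -0.90 and, without that library, -0.83. The highest value, 0.79 for Anxa8 and Duox1, was 0.56 without it. Of the 45 pairs, 25 had the same sign with and without that library.

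By summed CPM, markers of several other cell types stood apart between the genotypes, and the leukocyte and stromal lists did so in opposite directions at the 2 times. By the mean log2 CPM of each list, neither the leukocyte nor the stromal list stood apart at both times. Leukocyte markers then overlapped at 1 week, at 2.212 to 3.135 in WT and 2.78 to 3.584 in KO. Stromal and muscle markers then overlapped at 1 month, at 7.109 to 7.901 in WT and 7.116 to 7.566 in KO. The median log2 fold change of the tested leukocyte markers was 1.01 at 1 week and -0.99 at 1 month. That of the stromal and muscle markers was 1.27 and -0.10. Summed leukocyte markers (11 of 14 listed at a mean of 1 CPM or more) were 112 to 187.7 CPM in WT and 233.3 to 517.4 CPM in KO at 1 week, and 440.5 to 1035 CPM in WT and 262.5 to 313 CPM in KO at 1 month, when 3 of 9 tested fell in edgeR's test. Stromal and muscle markers were 3817 to 6188 CPM in WT and 6273 to 11560 CPM in KO at 1 week, and 10870 to 15580 CPM in WT and 9057 to 10610 CPM in KO at 1 month, when 1 of 14 rose in edgeR's test, 0 fell and the median log2 fold change was -0.10. Endothelial markers (9 of 9 at 1 CPM or more) were higher in KO at 1 week, at 398.5 to 600.2 against 218.4 to 260.1 CPM, and by sum overlapped at 1 month. By mean log2 CPM they were higher in KO at 1 month too, at 5.032 to 5.449 against 4.726 to 5.011. Basal urothelial markers (13 of 15, with Krt17 at 0 in every library of 1 month) overlapped at 1 week. At 1 month their sum was higher in KO, at 4962 to 6932 against 3561 to 4559 CPM. The median log2 fold change of the 12 tested was then -0.04. By mean log2 CPM the basal markers overlapped at 1 month, at 5.786 to 6.018 in WT and 5.686 to 6.138 in KO. By sum, luminal markers overlapped at both times, at 18190 to 35170 CPM in WT and 13380 to 18560 CPM in KO at 1 month, when 2 of 20 fell. By mean log2 CPM, every KO library was below every WT library at both times. At 1 week the luminal means were 7.884 to 8.107 in KO and 8.185 to 8.256 in WT. At 1 month they were 7.386 to 7.646 in KO and 7.733 to 8.13 in WT. The 12 proliferation markers, of which 11 reached 1 CPM, summed to 35.4 to 48.9 CPM in WT and 129.1 to 802 CPM in KO at 1 week, and overlapped at 1 month. In edgeR's test 0 of the 9 tested passed at 1 week, with a median log2 fold change of 4.28. Nerve and glia markers (7 of 10 at a mean of 1 CPM or more) summed to 749.4 to 1517 CPM in WT and 121 to 320.5 CPM in KO at 1 week, and to 1127 to 2945 CPM in WT and 193.1 to 819.4 CPM in KO at 1 month. Most of that sum was Uchl1. The other 6, separated after their values were seen, summed to 22.5 to 26.8 CPM in WT and 77.2 to 121.1 CPM in KO at 1 week, and overlapped at 1 month. Within groups, over 10 libraries, correlations of the 10 genes with the marker lists ran from -0.797 (Gipc2, proliferation) to 0.99 (Bex4, luminal). These are the extremes of all pairs of gene and list, and Bex4 is at the count floor in KO. The part of the marked cell types in the levels of the 10 genes was not tested.

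Genes related to the 10 by family or complex were examined in 9 lists, made with earlier results of these data known. At 1 week 0 of 73 tested genes passed edgeR's test over all genes, with 14 at an unadjusted p under 0.05 and 4 of 82 by DESeq2. Among all genes these last 2 counts were 1976 of 12754 and 883 of 14474. At 1 month, 0.997% of all genes were higher and 1.22% lower in edgeR's test. At that time 2608 of 12139 had an unadjusted p under 0.05, and DESeq2 passed 731 of 11363. Of the related genes 5 of 69 passed at 1 month, 3 higher and 2 lower, with 25 at an unadjusted p under 0.05 and 14 of 66 by DESeq2. Without the batch term 0 of these passed, without WT replicate 2 of that time 1, without KO replicate 1 or 2 of that time 2, without WT replicate 1 of that time 3, and without WT or KO replicate 3 of that time 16 and 15. Their median log2 fold change was 0.19 at 1 week and 0.20 at 1 month, against 0.02 and -0.01 over all genes.

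Among the NADPH oxidase genes, Duoxa1, the maturation factor that Duox1 needs to leave the endoplasmic reticulum, lies 1942 bases from Duox1. It differed by -0.32 (SE 0.30) at 1 week and by -0.04 (SE 0.31) at 1 month, with edgeR adjusted p of 0.612 and 0.955. Cybb, the catalytic subunit of the phagocyte oxidase, fell at 1 month from 40.1 ± 8.75 to 16.8 ± 4.80 CPM (SD, n = 3), which is -1.26 on the log2 scale (SE 0.23, adjusted p 0.0196 in edgeR). At 1 week Cybb stood at 1.39 (SE 0.64, adjusted p 0.353). Of this list 0 of 8 tested genes passed at 1 week and 1 of 7 at 1 month. The summed leukocyte markers lay in the same direction as Cybb at each time, and their part in it was not tested.

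In the list of creatine genes and Slc6 transporters, 0 of 7 passed at either time, with medians of 0.28 and 0.10. Gatm, the first enzyme of creatine synthesis, averaged 1.445 CPM in the WT libraries of 1 week against 10.9 CPM in KO, and 2.94 against 9.21 CPM at 1 month. Its log2 fold changes were 2.91 (edgeR adjusted p 0.157) and 1.59 (adjusted p 0.0620). Every KO library was above every WT library for Gatm at both times, but neither difference passed. Ckb, the cytosolic creatine kinase, was at -0.88 (SE 0.21, adjusted p 0.0505) at 1 month.

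Of the annexins, 0 of 9 passed at 1 week and 1 of 9 at 1 month. Anxa9 rose from 1.95 ± 0.405 to 6.84 ± 1.97 CPM (SD, n = 3) at 1 month, or by 1.83 on the log2 scale (SE 0.44, adjusted p 0.0479 in edgeR), and at 1 week it stood at -1.11 (adjusted p 0.422). Among secreted defence genes, 0 of 9 passed at 1 week and 2 of 7 at 1 month. Lyz1, a lysozyme with a near-identical copy, Lyz2, between which reads could be split, fell from 61.0 ± 27.9 to 14.5 ± 5.76 CPM, at -2.02 (SE 0.22, adjusted p 0.00113). Pigr, the receptor that carries antibodies across epithelia, rose from 9.49 ± 3.72 to 24.2 ± 8.77 CPM, at 1.36 (SE 0.27, adjusted p 0.0278). At 1 week Lyz1 stood at -0.19 and Pigr at -0.61, the latter with the opposite sign.

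In the list around Rac and the relatives of Arhgap22, 0 of 14 passed at 1 week and 1 of 13 at 1 month. That gene was Akt1, a kinase of growth factor signalling, at 1.66 (SE 0.33, edgeR adjusted p 0.0306), although its levels overlapped between genotypes, with 43.4 ± 49.8 CPM in WT and 96.3 ± 46.7 CPM in KO. A close relative of Arhgap22, Arhgap24, was at -0.83 at 1 week and -0.76 at 1 month, with adjusted p of 0.364 and 0.278. None of the 7 tested genes of the membrane phosphatidylinositol 4-kinase complex passed at either time. Pi4ka, its kinase, stood at -0.35 and 0.85, and Fam126b, the paralog of Fam126a, at -0.85 and -0.34. The lists of Gipc partners (7 tested), of Bex and Tceal genes (6 tested) and of contactins and Caspr relatives (6 tested) had 0 passing genes at either time.

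**Figure D5:**
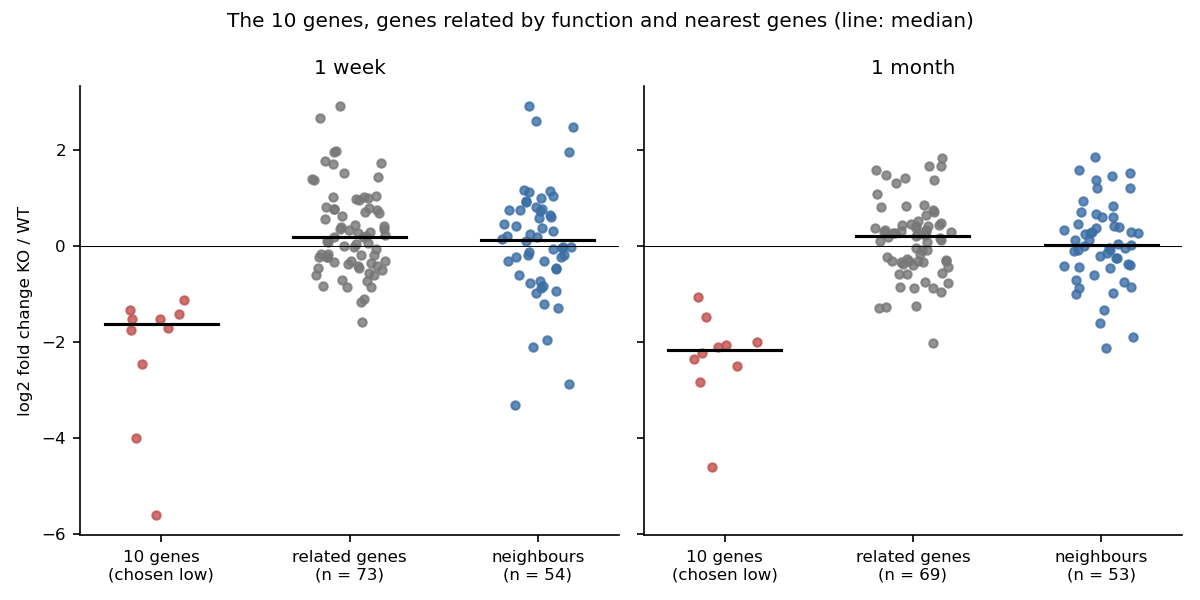
Fitted log2 fold change of KO over WT at 1 week (left) and 1 month (right) for the 10 genes, for genes of the 9 related lists and for their nearest tested genes on the chromosome, with the median of each set as a line. The 10 genes were chosen for low values. The related genes have medians of 0.19 and 0.20, and the neighbours of 0.12 and 0.03.

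The 10 genes lie on 7 chromosomes, and their nearest genes were measured as well. The 3 nearest tested genes on each side, in the GENCODE M21 annotation of GRCm38, gave 54 neighbours tested at 1 week and 53 at 1 month. Of these, 26 had a negative log2 fold change at each time, 48.1% and 49.1%, against 48.5% and 50.4% of all genes. At 1 week 0 neighbours passed edgeR's test over all genes, with 11 at an unadjusted p under 0.05 and 6 of 56 by DESeq2. Among all genes these last 2 counts were 1976 of 12754 and 883 of 14474. At 1 month 3 neighbours passed as higher and 1 as lower, where 0.997% and 1.22% of all genes did. Arhgap22 (chr14:33214026-33369934) and Anxa8 (chr14:34085981-34100571) lie 716 kb apart with 10 protein-coding genes between them, of which 2 were tested. Mapk8, a stress kinase gene 7964 bases from Arhgap22, rose at 1 month by 1.37 (SE 0.23, edgeR adjusted p 0.0115), and Zfp488 was at 0.66 (adjusted p 0.442). On the other side of Anxa8, Syt15 lies 119024 bases away. It was at -3.30 (SE 0.94, edgeR adjusted p 0.175) at 1 week and -2.13 (SE 0.58, adjusted p 0.0698) at 1 month. Glud1 and Gm3219, the next tested genes beyond it, had positive values at both times. Sord, which lies before Duox1 and encodes sorbitol dehydrogenase, fell by 1.602 on the log2 scale (SE 0.31, adjusted p 0.0286) at 1 month. Gprasp2 near Bex4 rose by 1.21 (SE 0.27, adjusted p 0.0359), and Slc30a4 near Duox1 by 1.52 (SE 0.33, adjusted p 0.0360). Gatm, described above, is the second tested gene after Duox1. With DESeq2 8 of 50 neighbours passed at 1 month, where 731 of 11363 genes did. Without the batch term no gene of all those tested passed at 1 month, so the calls of Mapk8, Sord, Gprasp2 and Slc30a4 were lost.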

How the data were processed

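RNA of 12 libraries was counted per gene by the authors. The deposited values are raw counts, whole numbers in 1 table per time. A 3′-end kit (QuantSeq, forward) that keeps the sense strand was used on total RNA, per the labels' protocols. Per the submitters' processing notes, Bowtie, TopHat, HTSeq, DESeq2 and the build mm10 were used, and versions and the annotation are not given in the sources used here.

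Groups come from the labelled genotype and time. Replicates were numbered in accession order and pair no animals. The column of WT replicate 3 at 1 month was matched through the library name in its description, whose animal code differs from that in its title. Each library has its own code, replicates differed beyond sampling noise (chi-square per degree of freedom 9.095 or more), and p-values measure the spread between these samples. No column was left unassigned.

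Each time was fitted with edgeR 4.0.16 (R 4.3.3): TMM, default low-count filter, robust quasi-likelihood test, batch as a covariate at 1 month, two-sided, Benjamini-Hochberg over all genes tested, threshold 0.05. The difference between the times is the interaction term of a fit of all 12 libraries with batch. SE is the absolute log2 fold change over the square root of F. Printed CPM share 1 TMM scaling over 12 libraries, and each fit has its own. Log2 CPM used a prior count of 2. A floor of 3 counts equals 0.305 to 0.632 CPM and covers counting error only. Correlations within groups use 10 libraries, since the lone libraries of batch 3 have no residual. Fits were run on simulated counts with known changes. Those counts held no batch effect and no outlying library, so they cannot show how either acts on the calls. Alternatives were other scaling, no filter, DESeq2 1.42.0, no batch term, batch 2 only and leaving out each library. The members and lists were chosen with earlier results of these data known. Named genes are the members, label checks, up to 2 called genes per list and time, the 5 with the most alike profile and the 5 non-members with the largest smaller difference among those lower at both times. Neighbouring genes, the other genes of the lists given with values and Uchl1's removal from its list were chosen after values were seen.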

Additional observations from a re-analysis of the deposited data

How the results depend on the processing

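No paired analysis was possible because the labels give no replicate numbers shared between groups. The fitted log2 fold changes of the 10 genes were below 0 in all 100 alternative values at 1 week and all 120 at 1 month, of which 96 and 93 moved by less than 1 SD. Since the genes were chosen for this direction, that is no sign of stability. The median correlation within groups was -0.089 without KO replicate 3 of 1 week.

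Counts over all genes depended on the settings. At 1 week edgeR called 8 genes, 62 with no filter on low counts and 883 with DESeq2, and 0 to 320 with a library left out, the most without KO replicate 3 of that time. At 1 month it called 269, 148 lower and 121 higher, and 561 with library size alone (105 lower, 456 higher, the median of all genes shifted to 0.215), 1276 with no filter, 731 with DESeq2, 0 with no batch term, 1474 in batch 2 only and 45 to 1522 with a library left out, the most without WT replicate 3 of that time. The difference between the times called 0 genes, with 2611 at an unadjusted p under 0.05, and 137 with no filter, 836 with DESeq2, 15 in batches 1 and 2 and 0 to 440 with a library left out, the most without KO replicate 2 of 1 week. Of the related genes, 0 were called at 1 week, 4 with DESeq2 and 0 to 2 with a library left out. At 1 month 5 were called, 11 with library size alone, 17 with no filter, 14 with DESeq2, 0 with no batch term, 16 in batch 2 only and 1 to 16 with a library left out. The cause of these changes was not tested. Where a fit left 1 library of a batch or genotype, that library was assumed to vary like the others.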

Other observations

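The 10 genes were part of a larger set. Of 11919 genes tested at both times, 146 had every KO library below every WT library at both times, 94 had every KO library above at both, 92 were lower at 1 week and higher at 1 month, and 107 the reverse. Of the 146, 51 had a log2 fold change of -1 or below at both times, all 10 genes among them, and 37 others had a smaller difference at least as large as that of Duox1, the least changed of the 10. The 5 others with the largest such values were Hrh3, Dmgdh, Ttr, Uchl1 and Syt1. Hrh3, the histamine H3 receptor, had 17.7 to 19.4 CPM in WT and 0 counts in KO at 1 week, at least 31.0-fold lower at a floor of 3 counts per library, and 11.6 against 0.361 CPM on average at 1 month. Uchl1, a ubiquitin hydrolase abundant in neurons, had 727 to 1495 CPM in WT and 43.8 to 238.8 CPM in KO at 1 week, and 1091 to 2912 against 133.8 to 767.5 CPM at 1 month. Ttr, the thyroxine carrier transthyretin, averaged 29.2 and 4.61 CPM at 1 week and 110.1 and 13.3 CPM at 1 month in WT and KO. Dmgdh, a mitochondrial enzyme of choline breakdown, averaged 3.87 and 0.449 CPM at 1 week and 6.78 and 0.643 CPM at 1 month. Syt1, a calcium sensor of vesicle release, averaged 5.87 and 0.724 CPM, then 4.08 and 0.822 CPM.

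By profile over the 12 libraries, with each batch centred, the other genes most alike to the mean of the 10 were Homer2 (r = 0.986), Hrh3 (0.973), Dbndd1 (0.972), Ap3b2 (0.966) and Hs3st6 (0.959). Dbndd1 and Hs3st6 did not pass the low-count filter at either time. Their WT means were 1.23 to 2.22 CPM. Their KO means, 0.0426 to 0.105 CPM, lay below the floor of 3 counts, so their r rests on few counts. The 10 genes themselves had r of 0.8997 for Arhgap22 to 0.964 for Bex4. These correlations describe a pattern chosen by genotype, over libraries that share batch and scaling. Homer2, a scaffold of postsynaptic and calcium signalling, had a smaller difference, with 224.4 ± 2.97 and 164.7 ± 2.38 CPM (SD, n = 3) in WT and KO at 1 week and 164.5 ± 41.4 and 121.2 ± 29.2 CPM at 1 month. Its fitted log2 fold changes were -0.42 and -0.43.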
